A study of Mus musculus with 15 samples.

Results

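TRBV1 receptors are the T cell receptor beta (TCRβ) chains built on the V segment Trbv1, known in the older mouse nomenclature as Vβ2. They were taken as every deposited entry whose V family is TRBV1, and numbered 3944 of 59364 clonotypes over 15 libraries. A clonotype is a distinct combination of V family, J cluster and nucleotide CDR3. Of the TRBV1 clonotypes, 621 were in tetramer-sorted libraries and 3323 in the comparison fraction. The rule used the V family alone, so shares, counts and J cluster are independent of it. The first CDR3 residues and part of the CDR3 length come from the V segment itself and are not. TRBV1 itself was chosen among the families with earlier results of these data known.

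The mice were of the non-obese diabetic (NOD) strain, which develops autoimmune diabetes, and were 125 days old. They were either wild type (WT) or Ifngr1-mutant, Ifngr1 encoding a chain of the interferon-γ receptor; the titles of the mutant samples also carry the tag GKO, which the labels do not spell out. Spleen and non-draining lymph nodes were pooled for each mouse. CD8 T cells that bound a tetramer of H-2Kd with a peptide of IGRP, an autoantigen of pancreatic beta cells, made up the TET fraction. CD8+CD44+ cells that did not bind it made up the CD8 fraction. Libraries came in 4 groups, WT CD8 (n = 4), mutant CD8 (n = 4), WT TET (n = 3) and mutant TET (n = 4), with 1 library per mouse and fraction. The TET library of a 4th WT mouse was not analysed here.

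A TCRβ chain is assembled in the thymus from a V, a D and a J segment. The CDR3 is the loop that spans the joint, and it lies over the peptide held by the MHC molecule, while the other loops come from the V segment alone. V family use therefore records which germline framework a T cell carries, and the bases between V and J record the single rearrangement that made it. CD8 T cells specific for IGRP are among the best described islet-reactive cells of NOD mice.

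Trbv1 (gene 621968, also listed as Tcrb-V2) lies on chromosome 6 from 40891296 to 40891885 in GRCm38.p6. It is the most 5′ of the 35 Trbv genes in the RefSeq table. The next, Trbv2, starts 155670 bp after the end of Trbv1, and the first D segment, Trbd1, starts 641315 bp after it. The V family as deposited names no allele, and in mouse this family has 1 gene in that table.

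Most TRBV1 CDR3s opened with the same bases, which encode the residues CTCSA, since every codon that starts with GC gives alanine. These 14 bases began 2812 of the 3944 clonotypes (71.3%), and 14 was also the most frequent number of CDR3 bases that the deposited tables aligned to the V segment (1584 clonotypes). The largest TRBV1 clonotype of each TET library is printed after them, with capitals for the bases that the tables aligned to neither V nor J. These include the bases of any D segment, and their limits are those of the deposited alignment.

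shared start: TGCACCTGCAGTGC
WT TET 1: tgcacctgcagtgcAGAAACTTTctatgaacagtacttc
WT TET 2: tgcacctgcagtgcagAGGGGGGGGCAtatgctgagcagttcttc
WT TET 3: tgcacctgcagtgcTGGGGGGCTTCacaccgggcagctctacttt
mutant TET 1: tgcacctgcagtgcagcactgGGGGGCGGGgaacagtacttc
mutant TET 2: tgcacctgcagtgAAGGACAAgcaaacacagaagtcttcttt
mutant TET 3: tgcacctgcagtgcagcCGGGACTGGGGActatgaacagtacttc
mutant TET 4: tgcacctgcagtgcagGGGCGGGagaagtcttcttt

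The 7 sequences differed from each other in their joints, and no CDR3 was the largest in more than 1 library.

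A TET library held 2536 to 60164 counts in total, and a CD8 library 17116 to 32856. WT TET libraries held 97 to 126 clonotypes of any family and mutant TET libraries 393 to 2199, so that WT TET values rest on 6 to 17 TRBV1 clonotypes each. WT TET 2 and mutant TET 4 stood apart: TRBV13 took 98.3% and 95.6% of their counts, against 70.2% to 81.6% in the other TET libraries. They shared 18 clonotypes, which held 25.4% of the counts of WT TET 2 and 88.9% of those of mutant TET 4, though they carry different strain labels. None of the 18 was TRBV1. Results that leaving them out moved most are also given without them. Fewer cells and less RNA per cell cannot be told apart in bulk libraries, and neither the number of sorted cells nor whether counts are reads or molecular identifiers is known here.

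Whether tetramer-binding cells use TRBV1 more often than the other CD8 T cells was asked first by counting each clonotype once. TRBV1 made up 4.22%, 7.45%, 6.48% and 6.40% of clonotypes in WT CD8 1 to 4, and 6.89%, 6.28%, 5.75% and 5.51% in mutant CD8 1 to 4. It made up 11.4%, 11.0%, 11.4% and 11.7% in mutant TET 1 to 4, each above every CD8 library. The WT TET libraries held 16.7%, 7.94% and 6.19%, which spread over a wider range than the other groups, and only WT TET 3 fell within the CD8 range.

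With strain as a covariate, the TRBV1 share of clonotypes in TET exceeded that in CD8, with a log2 difference of 0.87 (SE 0.11, edgeR quasi-likelihood test, adjusted p = 1.14e-08). Most V families changed in this comparison: 86.7% of the 15 tested passed, and 40% passed as higher, so the call alone does not set TRBV1 apart. In mutant mice the difference was 0.91 (SE 0.083, edgeR adjusted p = 5.02e-09; 82.4% of 17 families called). In WT mice it was 0.69 (SE 0.42, edgeR adjusted p = 0.242; 40% of 15 families called), and 0.19 without WT TET 1 (edgeR adjusted p = 0.735). DESeq2, which scales libraries by its own size factors and not by all clonotypes, called it in WT mice, at 1.12 (adjusted p = 0.00323). With TMM factors, another scaling of libraries, edgeR gave 0.97 in WT mice (adjusted p = 0.158). Over both strains these scalings gave smaller differences, 0.63 by DESeq2 (adjusted p = 6.11e-06) and 0.70 with TMM factors (edgeR adjusted p = 0.000267). With libraries rarefied to equal depth the difference was 0.62 (edgeR adjusted p = 0.0015). In mutant mice it was 0.69 by DESeq2, 0.67 with TMM factors and 0.91 at equal depth, and each passed. TRBV1 was the second most frequent family by clonotypes in every TET library except WT TET 3, where it was the 4th; TRBV13 was the most frequent. In CD8 libraries its rank ran from 2 to 10.

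**Figure D1:**
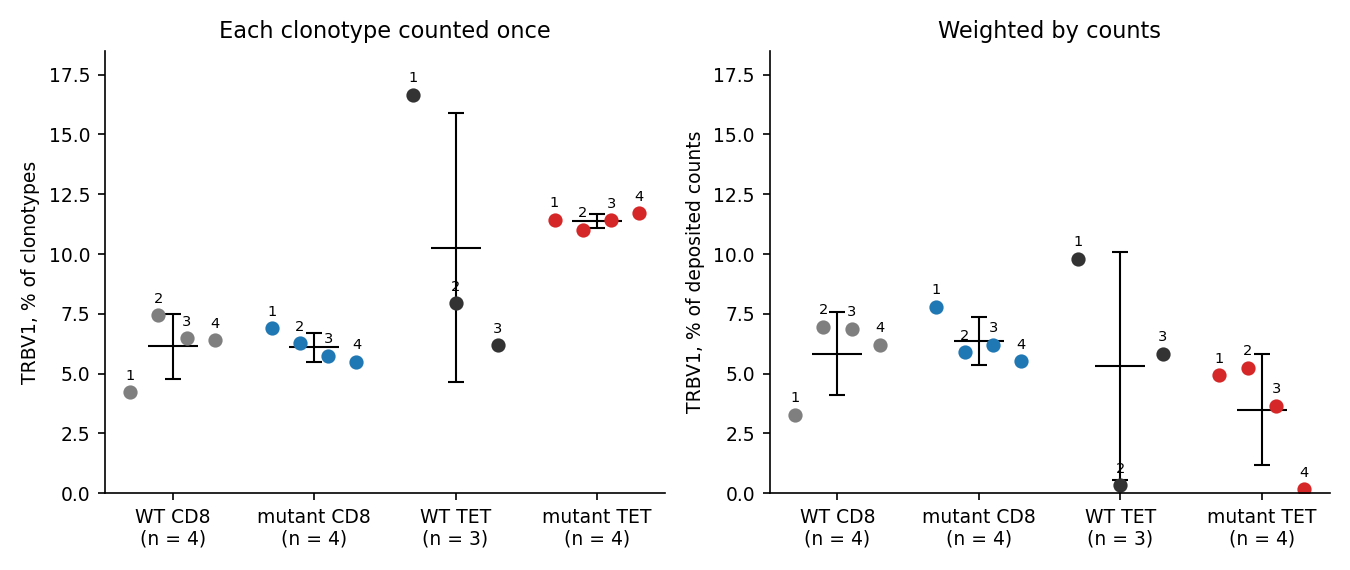
TRBV1 as a percentage of all clonotypes (left) and of all deposited counts (right) in each library, by strain and fraction. Points are libraries with their replicate number, and lines are the group mean and SD. By clonotypes all 4 mutant TET libraries lie above every CD8 library, while by counts WT TET 2 and mutant TET 4 lie near 0.

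Strains did not differ in the TRBV1 share by a difference that passed the test. In TET, the mean was 10.3 ± 5.61% in WT (SD, n = 3) and 11.4 ± 0.288% in mutant mice (SD, n = 4), a log2 difference of 0.15 (SE 0.29, edgeR adjusted p = 0.605; 12.5% of 8 families called). This difference was -0.04 without WT TET 2 and mutant TET 4, and 0.65 without WT TET 1 (edgeR adjusted p = 0.133), so its size and sign rest on single WT libraries. In CD8, the means were 6.14 ± 1.37% and 6.10 ± 0.613% (SD, n = 4 each), a log2 difference of -0.07 (SE 0.11, edgeR adjusted p = 0.730; 0% of 17 families called). The effect of strain differed between the fractions by 0.23 (SE 0.36, edgeR adjusted p = 0.567; 0% of 15 families called). The errors of the TET values are set mainly by the WT libraries, and differences of the size of their SE were not detectable here.

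The picture by counts was another one. TRBV1 took 9.80%, 0.328% and 5.84% of the counts in WT TET 1 to 3, and 4.93%, 5.23%, 3.66% and 0.160% in mutant TET 1 to 4. It took 3.28%, 6.95%, 6.88% and 6.21% in WT CD8 and 7.81%, 5.90%, 6.21% and 5.52% in mutant CD8. In mutant mice all 4 TET libraries lay below every CD8 library of that strain, and mutant TET 4 was the lowest of the 15 libraries. Most other families tested by counts also lay lower without overlap in mutant TET. TRBV13 lay higher, at 77.4% to 95.6% of counts against 43.7% to 50.7% in mutant CD8. In the edgeR fit of counts in mutant mice, 7 of 17 families were called lower, and TRBV1 was not (adjusted p = 0.454). Weighted by counts, the TET libraries differed from CD8 by -0.52 on the log2 scale (SE 0.64, edgeR adjusted p = 0.516; 58.8% of 17 families called), so the direction was the opposite of that by clonotypes and did not pass. The TET mean was 4.28 ± 3.35% of counts (SD, n = 7) against 6.09 ± 1.34% in CD8 (SD, n = 8), and it was 5.89 ± 2.33% (SD, n = 5) without WT TET 2 and mutant TET 4, close to CD8.

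Relative clone size was taken per library as log2 of the TRBV1 share of counts over its share of clonotypes, so that 0 means TRBV1 clonotypes of average size. In CD8 the values were close to 0: -0.36, -0.10, 0.09 and -0.04 in WT 1 to 4, and 0.18, -0.09, 0.11 and 0.00 in mutant 1 to 4. In TET they were -0.77, -4.60 and -0.08 in WT 1 to 3, and -1.21, -1.07, -1.64 and -6.20 in mutant 1 to 4. Every TET value was below 0, and 6 of 7 were below the lowest CD8 value, WT TET 3 being the exception.

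Relative clone size differed between TET and CD8 by -2.15 on the log2 scale (two-sided exact permutation p = 0.00122, adjusted 0.022 over 18 tests). The difference was -0.84 without WT TET 2 and mutant TET 4, with adjusted p = 0.0429 by the same exact test. With same-numbered libraries of a strain as pairs it was -2.20 (exact sign-flip p = 0.0156, the smallest that 7 pairs allow; adjusted 0.0938). Leaving out any 1 of the 4 WT CD8 libraries also took the adjusted value past 0.05, to at most 0.0771 by the same exact test, with differences of -2.19 to -2.12. Between strains it differed by -0.71 in TET (exact permutation p = 0.657) and by 0.16 in CD8 (exact permutation p = 0.2); leaving out mutant TET 4 turned the TET value to 0.51, and leaving out WT TET 3 turned it to 0.15. The smallest p that 3 against 4 libraries allow is 0.0286.

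A mean relative size below 0 in TET was shared by the other families except TRBV13. Of the 15 families compared in TET, TRBV1 ranked 13th from the lowest by its mean, -2.22 ± 2.27 (SD, n = 7), below TRBV13 (0.71 ± 0.22, SD, n = 7) and TRBV4 (-1.20 ± 1.04, SD, n = 7). Without WT TET 2 and mutant TET 4 the TRBV1 mean was -0.95 ± 0.58 (SD, n = 5) and its rank was again 13th. Among clonotypes outside TRBV13, TRBV1 made up 13.6% to 37.0% of clonotypes and 3.61% to 53.3% of counts in TET, against 6.76% to 11.8% and 7.14% to 15.1% in CD8. Set against these families only, relative clone size was 0.53, -0.26 and 0.52 in WT TET 1 to 3, and 0.22, 0.42, -0.37 and -2.61 in mutant TET 1 to 4. In CD8 it ran from 0.08 to 0.52, so WT TET 2, mutant TET 3 and mutant TET 4 lay below the CD8 range and the other TET libraries within or just above it. These values were computed after the family pattern was seen and were not tested.

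**Figure D2:**
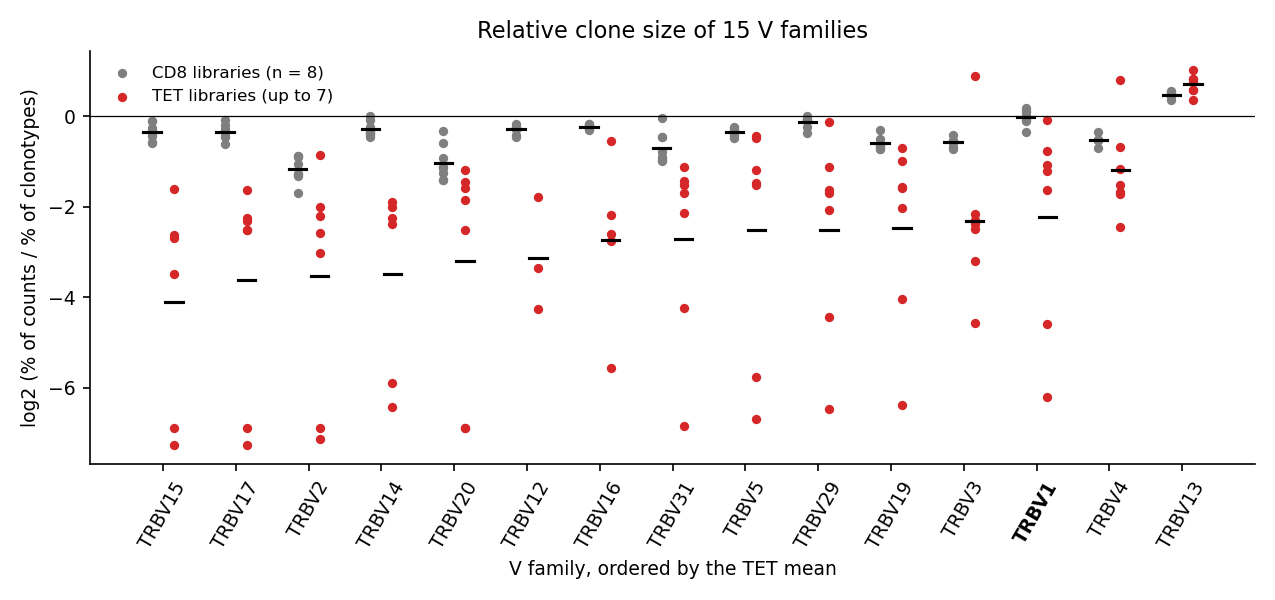
Relative clone size, log2 of a family's share of counts over its share of clonotypes, for the 15 V families compared, ordered by the TET mean. Points are libraries (CD8 grey, TET red) and black lines are means. TRBV1 lies below TRBV13 and TRBV4 in TET, and TRBV13 is the only family with a TET mean above 0.

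The median TRBV1 clonotype was about as large as the median clonotype of the other families in most libraries. Median counts in TET were 27, 2.5 and 17.5 for TRBV1 in WT 1 to 3, beside 29, 13 and 21 for the other families. They were 6, 4, 2 and 1 in mutant TET 1 to 4, beside 6, 4, 3 and 2. The mean counts lay further apart. In mutant TET 1 to 4 they were 7.48, 4.86, 4.32 and 2.09 for TRBV1, beside 18.6, 10.9, 14.6 and 173 for the others. The difference between means and medians lies in the largest clonotypes.

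By size class, pooled over the TET libraries, TRBV1 made up 210 of 1766 clonotypes with a count of 1 (11.9%) and 289 of 2154 with counts of 2 to 9 (13.4%). It made up 121 of 1528 with counts of 10 to 99 (7.92%), and 1 of 97 with 100 or more (1.03%). In mutant TET none of the 65 clonotypes of 100 counts or more was TRBV1. The same classes in CD8 gave 5.92%, 6.38%, 5.35% and 1 of 12. Without WT TET 2 and mutant TET 4 the TET shares were 11.5%, 13.5%, 8.14% and 1 of 49. Pooled shares weigh libraries by their clonotypes, so the TET values are largely those of mutant TET 1 to 3, and depth differs between libraries. Size classes were not counted for any other family, and mean relative size in TET was below 0 in all families compared but TRBV13. Absence from the largest class is therefore not shown to be particular to TRBV1.

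**Figure D3:**
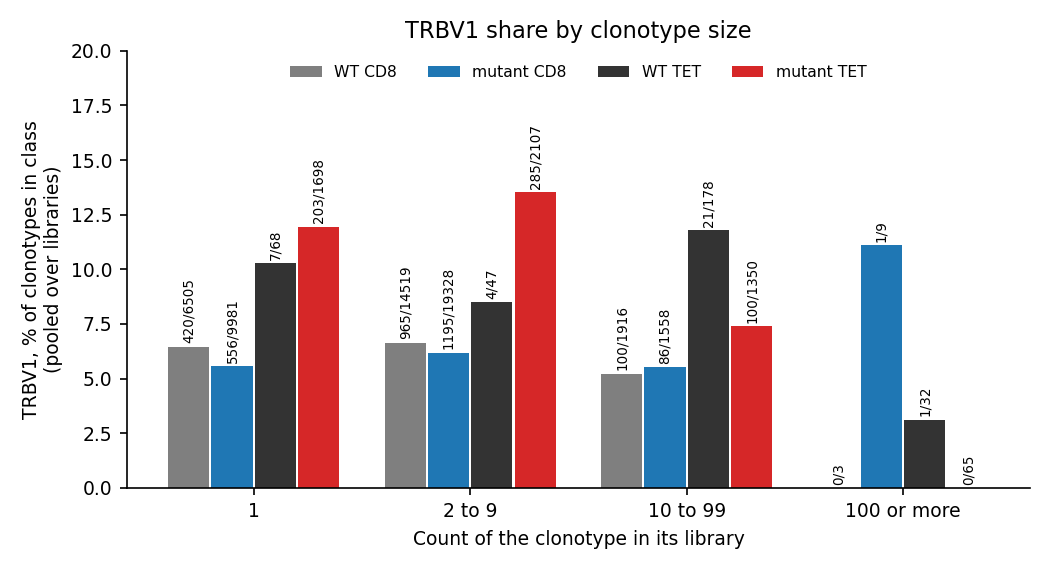
TRBV1 as a percentage of the clonotypes in each class of deposited count, pooled over the libraries of a group. Numbers over the bars are TRBV1 clonotypes over all clonotypes of the class; in mutant TET the share was 13.5% at 2 to 9 counts, 7.41% at 10 to 99 and 0 of 65 at 100 or more.

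The largest TRBV1 clonotypes, whose sequences are printed above, held 123 counts in WT TET 1 (2.48% of the library, exact 95% interval 2.06% to 2.95%), 15 in WT TET 2 (0.100%) and 55 in WT TET 3 (2.17%, interval 1.64% to 2.81%). They ranked 4th, 56th and 14th among all clonotypes of their libraries. In mutant TET 1 to 4 they held 30, 20, 23 and 15 counts, or 0.173%, 0.0891%, 0.105% and 0.0249%. Their ranks there were 114, 147, 160 and 55. No mutant TET library had a TRBV1 clonotype among its 20 largest, and WT TET 1 and WT TET 3 had 1 each. Intervals cover counting error only.

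In CD8 libraries the rank of the largest TRBV1 clonotype ran from 2 to 76 in WT and from 1 to 17 in mutant mice. WT CD8 1 to 4 had 0, 0, 1 and 1 TRBV1 clonotypes among their 20 largest, and mutant CD8 1 to 4 had 2, 2, 2 and 1. In mutant mice every CD8 library thus had at least 1 and no TET library had any, whereas WT CD8 and WT TET overlapped. Libraries differ in their number of clonotypes, and these counts were not tested. The same count was not made for the other families, and TRBV13 held 77.4% to 95.6% of the deposited counts of mutant TET. Mutant CD8 1 and mutant CD8 3 were led by a TRBV1 clonotype, with 141 and 65 counts (0.674% and 0.263%), and the largest TRBV1 clonotype of WT CD8 3, with 87 counts (0.336%), ranked 2nd. These 3 are printed with the same bases in capitals, since they show how TRBV1 clonotypes at the top of a CD8 library compare with those of TET.

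mutant CD8 1: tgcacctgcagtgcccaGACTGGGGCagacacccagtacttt
mutant CD8 3: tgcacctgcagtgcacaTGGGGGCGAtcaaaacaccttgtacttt
WT CD8 3: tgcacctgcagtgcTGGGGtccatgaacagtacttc

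The first was also found in WT CD8 2, at 21 counts, and the other 2 were found in no other library. In the remaining CD8 libraries the largest TRBV1 clonotype held 26 counts in WT CD8 1, 27 in WT CD8 2 (shared by 2 clonotypes), 25 in WT CD8 4, 49 in mutant CD8 2 and 43 in mutant CD8 4.

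The TRBJ1 cluster was named for 1365 TRBV1 clonotypes (34.6%) and the TRBJ2 cluster for 2579; the tables name no J segment. TRBJ1 was used by 27.9%, 35.1%, 34.9% and 32.5% of TRBV1 clonotypes in WT CD8 1 to 4 and by 34.5%, 32.8%, 32.1% and 28.3% in mutant CD8 1 to 4. In the other families of the same libraries it was used by 27.2%, 30.0%, 30.4% and 28.1%, and by 28.1%, 26.6%, 27.6% and 25.5%. TRBV1 was therefore higher than the other families in 8 of 8 CD8 libraries, by 4.33 percentage points on average (two-sided exact sign-flip permutation p = 0.00781, the smallest possible; adjusted 0.0469). The excess was 2.80 points without single-count clonotypes and 0.475 points when weighted by counts, and neither passed after adjustment (adjusted exact permutation p = 0.113 and 0.741).

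In TET, TRBJ1 was used by 35.3%, 30.0% and 33.3% of TRBV1 clonotypes in WT 1 to 3 and by 47.4%, 50.8%, 44.6% and 30.4% in mutant 1 to 4. The other families held 41.2%, 32.8% and 24.2%, and 43.7%, 44.1%, 43.2% and 36.0%. TRBJ1 use was thus high in mutant TET 1 to 3 in TRBV1 and in the other families alike, and TRBV1 was higher in 4 of 7 libraries, by 0.964 points on average (exact sign-flip permutation p = 0.672), or 3.02 points without WT TET 2 and mutant TET 4. The WT values rest on 6, 3 and 2 TRBJ1 clonotypes.

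Between the fractions, TRBJ1 use of TRBV1 was 5.82 points higher in TET, which did not pass (exact permutation p = 0.0796, adjusted 0.257). It was 8.69 points higher without WT TET 2 and mutant TET 4 (adjusted exact permutation p = 0.0429) and 11.0 points higher without single-count clonotypes (adjusted exact permutation p = 0.0469). The excess of TRBV1 over the other families was 3.47 points smaller in TET, a difference of -3.47 (exact permutation p = 0.162), and -5.71 without WT TET 3 (adjusted exact permutation p = 0.0343). Mutant TET exceeded WT TET by 10.4 points (exact permutation p = 0.114, adjusted 0.294), and in CD8 the strains differed by -0.676 points (exact permutation p = 0.686).

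**Figure D4:**
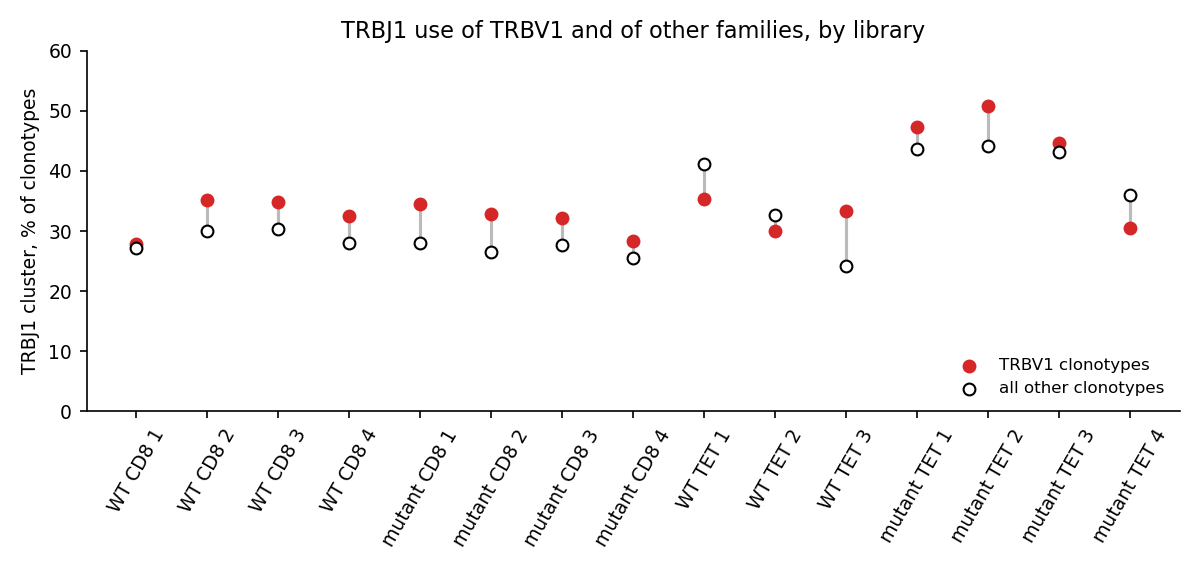
TRBJ1 cluster use, in percent of clonotypes, of TRBV1 (red) and of all other families (open circles) in each library. TRBV1 lies above the other families in all 8 CD8 libraries and in 4 of 7 TET libraries.

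The D segment named for a TRBV1 clonotype followed the J cluster. TRBD2, which lies 3′ of the TRBJ1 cluster and 5′ of TRBJ2, was named in 55 of 1365 clonotypes with TRBJ1 (4.03%) and in 922 of 2579 with TRBJ2 (35.8%). TRBD1 was named in 60.5% and 36.8% of them. In 30.2% of TRBV1 clonotypes no D was named. D segments are short and partly alike, so a named D is the clonotype caller's assignment.

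All CDR3 lengths are in amino acids and include the first cysteine and the last phenylalanine. TRBV1 CDR3s were longer than those of the other families in 8 of 8 CD8 libraries. Mean lengths were 14.0, 14.2, 14.2 and 14.1 in WT CD8 1 to 4 and 14.2, 14.4, 14.3 and 14.4 in mutant CD8 1 to 4, where the other families had 13.8 to 13.9. The mean excess was 0.349 residues (exact sign-flip permutation p = 0.00781, the smallest possible; adjusted 0.0469). It was 0.410 when weighted by counts, with an adjusted exact permutation p of 0.0703. Part of the CDR3 length comes from the V segment that defines the family. Tests of the excess within a fraction therefore cannot separate the V part from the joint. In CD8, 15 residues were found in 28.6 ± 3.40% of TRBV1 clonotypes (SD, n = 8), close to the 30.1 ± 3.33% with 14.

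In TET, TRBV1 means were 14.5, 14.2 and 13.7 in WT 1 to 3, against 13.3, 13.4 and 13.9 in the other families. In mutant 1 to 4 they were 14.3, 14.0, 14.2 and 14.0, against 13.9, 13.9, 13.9 and 13.7. TRBV1 was longer in 6 of 7 libraries, WT TET 3 with its 6 clonotypes being the exception, by 0.436 residues on average (exact sign-flip permutation p = 0.0469, adjusted 0.211). The fractions differed by -0.08 residues in TRBV1 length (exact permutation p = 0.511), and the excess differed by 0.107 (exact permutation p = 0.583). Between strains, TRBV1 length differed by 0.01 in TET (exact permutation p = 0.943) and by 0.17 in CD8 (exact permutation p = 0.0857, adjusted 0.257).

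**Figure D5:**
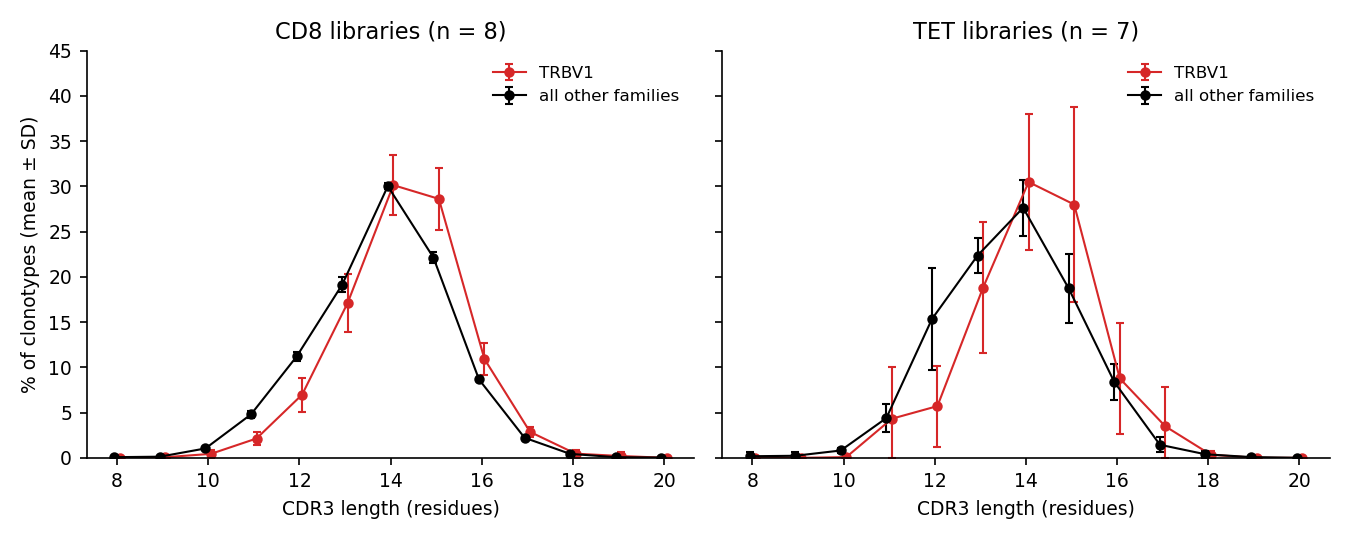
Share of clonotypes at each CDR3 length, in percent, for TRBV1 (red) and all other families (black), as mean and SD over the 8 CD8 libraries (left) and the 7 TET libraries (right); lower bars end at 0. In CD8 the TRBV1 share at 15 residues, 28.6%, is close to its share at 14, 30.1%.

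More CDR3 bases were aligned to V in TRBV1 than in the other families, and fewer lay between V and J. In CD8 libraries the mean was 14.8 V bases against 13.3, and 9.00 bases between V and J against 9.63. In TET it was 14.7 against 13.3, and 8.73 against 8.93. In each of the 8 CD8 libraries the V part of TRBV1 was longer and the joint shorter than in the other families. In TET the V part was longer except in WT TET 3. The joint was longer than in the other families in WT TET 1 (10.1 against 8.75 bases), WT TET 2 (8.90 against 8.49) and mutant TET 3 (9.07 against 9.02). These means are descriptions of the caller's alignments, and no test was made of them.

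The CDR3 began with CTCSA in 2842 of 3944 TRBV1 clonotypes (72.1%), and next with CTCSG in 366 (9.28%). CTCSA opened 71.8% of TRBV1 clonotypes in TET and 72.1% in CD8. By library its share ran from 69.5% to 80.2% in WT CD8, from 70.0% to 73.0% in mutant CD8, from 52.9% to 90% in WT TET and from 67.4% to 78.1% in mutant TET. The wide range of WT TET comes with 6 to 17 clonotypes per library.

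Residue 6, counted from the first cysteine, is the first position past this common start. It was glycine in 1166 TRBV1 clonotypes (29.6%), aspartate in 848 (21.5%), threonine in 298, arginine in 291 and glutamate in 259. Aspartate stood there in 26.7%, 19.4%, 22.1% and 21.5% of TRBV1 clonotypes in WT CD8 1 to 4, and in 21.9%, 22.7%, 20.5% and 24.6% in mutant CD8 1 to 4. In TET the shares were 17.6%, 20% and 33.3% in WT 1 to 3 and 20.2%, 19.0%, 18.3% and 15.2% in mutant 1 to 4. Mutant TET, at 15.2% to 20.2%, lay just below mutant CD8, at 20.5% to 24.6%, and the other pairs of groups overlapped. Aspartate was not alone in this among the 13 residues at a CD8 mean of 1% or more. Glycine was also lower in mutant TET (17.4% to 24.7% against 27.4% to 29.3%). Glutamine (5.79% to 15.2% against 1.66% to 3.87%) and serine (4.55% to 8.70% against 1.87% to 4.25%) were higher without overlap. The other residues overlapped. These ranges were compared after the values were seen and were not tested.

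The fractions differed by -1.52 points in the aspartate share (exact permutation p = 0.56), and by -3.94 without WT TET 3 (adjusted exact permutation p = 0.0343), where 2 of 6 TRBV1 clonotypes carry aspartate. The difference was -0.114 without WT TET 2 and mutant TET 4. The strains differed by -5.49 points in TET (exact permutation p = 0.257) and by 0.0134 in CD8 (exact permutation p = 1).

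After the values were seen, residue 6 of TRBV1 CDR3s was compared between strains in CD8. Of the 13 residues at a mean of 1% or more, 2 had no overlap between the strains' libraries (15.4%). Glutamate stood there in 3.49%, 5.56%, 5.30% and 3.45% of TRBV1 clonotypes in WT CD8 1 to 4, and in 8.71%, 7.26%, 6.96% and 8.69% in mutant CD8 1 to 4. Glycine stood there in 34.9%, 32.6%, 31.8% and 34.9% in WT and in 27.4%, 28.6%, 29.3% and 27.7% in mutant CD8. In mutant TET 1 to 4 glutamate was at 8.77%, 7.44%, 6.45% and 6.52%, and in WT TET at 11.8%, 20% and 0%. These values were picked from the data and were not tested.

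At the other end of the CDR3, TRBV1 clonotypes most often closed with TLYF (22.7%), EQYF (18.0%) and EQFF (12.1%), residues that come from the J segment. TLYF closed 22.4% in TET and 22.7% in CD8. EQYF closed 14.3% in TET and 18.7% in CD8, and EVFF 12.7% and 8.85%. RLFF closed 9.82% in TET and 6.65% in CD8. These are pooled shares of clonotypes with no test.

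Most TRBV1 CDR3s were found in 1 library of a fraction; the same count was not made for the other families. Of 556 distinct amino acid CDR3s of TRBV1 in TET, 506 were found in 1 TET library, 45 in 2 and 5 in 3. Of 2981 in CD8, 2807 were in 1 library, 142 in 2, 27 in 3 and 5 in 4. The fractions had 100 CDR3s in common, which was 18.0% of those in TET and 3.35% of those in CD8.

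The 5 CDR3s found in 3 TET libraries each came from 1 nucleotide sequence, and all of these TET libraries were mutant. WT TET libraries held 6 to 17 TRBV1 clonotypes each, and mutant TET libraries 46 to 242. The 5 CDR3s are printed with the bases aligned to neither V nor J in capitals, as in the library where the count was highest. They are lettered a to e for reference.

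shared a: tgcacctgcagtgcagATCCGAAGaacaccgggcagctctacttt
shared b: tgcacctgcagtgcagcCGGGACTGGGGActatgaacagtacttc
shared c: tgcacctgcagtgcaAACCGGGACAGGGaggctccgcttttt
shared d: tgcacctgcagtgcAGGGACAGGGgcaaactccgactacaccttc
shared e: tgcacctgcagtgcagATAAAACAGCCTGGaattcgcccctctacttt

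Clonotype a held 16, 3 and 5 counts in mutant TET 1, 2 and 3. Clonotype b, also the largest TRBV1 clonotype of mutant TET 3, held 1, 23 and 2 counts in mutant TET 2, 3 and 4. Clonotype c held 9, 4 and 4 counts in mutant TET 1, 2 and 3. All 3 were in no CD8 library. Clonotype d held 12, 1 and 1 counts in mutant TET 1, 2 and 3 and 1 count in WT CD8 3. Its sequence was aligned to V over 14 bases in mutant TET 1 and 2, and over 16 in mutant TET 3 and WT CD8 3. Clonotype e held 9, 3 and 2 counts in mutant TET 1, 2 and 4 and 1 count in mutant CD8 2. Among all TRBV1 clonotypes of mutant TET 1 to 4, 2, 2, 2 and 1 were also found in another library at 10 times their count or more. They include clonotype b in mutant TET 2 and 4 and clonotype d in mutant TET 2 and 3. Without such entries, b would remain in mutant TET 3 alone and d in mutant TET 1 alone.

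By nucleotide clonotype, 23.7%, 15.7%, 14.0% and 13.0% of the TRBV1 clonotypes of mutant TET 1 to 4 were found in another TET library. In the other families these shares were 14.6%, 12.1%, 13.0% and 19.6%. In the CD8 library with the same strain and number, 3.51%, 3.31%, 1.08% and 0% were found, beside 2.72%, 1.84%, 1.38% and 4.90% in the other families. Mutant TET 1 and 2 shared 19 TRBV1 clonotypes, as did mutant TET 2 and 3. WT TET libraries shared 1 TRBV1 clonotype with each other, the largest of WT TET 1, at 123 counts in WT TET 1 and 2 in WT TET 2.

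Over the 15 libraries, and among the 15 families that passed the filter on low counts, those whose share of clonotypes was most like that of TRBV1 were TRBV2, TRBV13 and TRBV31. Likeness was the mean absolute difference from TRBV1 in log2 of the share over the mean CD8 share, and it was 0.338, 0.361 and 0.385. TRBV30, which did not pass the filter, was at 0.371. The fractions entered this choice, so the differences between TET and CD8 in these families are descriptions with no test. By clonotypes they were 0.71 for TRBV2, 0.48 for TRBV13 and 1.79 for TRBV31 on the log2 scale, and by counts -0.44, 0.77 and -0.14. Shares within a library sum to a whole, so families do not vary independently.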

How the data were processed

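Each library has a table in which the authors give the count of every nucleotide CDR3, with its V family, D and J names and its translation. Per the labels' protocols, TCRβ cDNA was made by 5′RACE with molecular identifiers and sequenced on a MiSeq; which aligner, caller and build were used is not given in the sources used here. Shares were computed anew from the deposited counts, without 4 entries of alpha chain segments (6 counts).

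TRBV1 was chosen, and all lists and tests were set, with earlier results of these data known. Clonotypes per V family were compared with edgeR 4.0.16 (quasi-likelihood, filterByExpr minimum 10, library size all clonotypes, no further normalization, no dispersion trend), with Benjamini-Hochberg adjustment over the families; DESeq2 1.42.0 was an alternative. Other measures were compared by two-sided exact permutation over libraries, TET against CD8 within strain, and adjusted over 18 tests. A result was called at an adjusted p under 0.05. Each mouse gave 1 library per fraction, so the libraries of a group are different mice. Except in the alternative with pairs, TET and CD8 libraries were treated as independent, though a mouse could give both. The edgeR test also draws on the spread of the other families. Each SE given with it is the absolute log2 difference over the square root of the test's F statistic. The edgeR test was tested on simulated counts in which no family but TRBV1 changed, and the exact test on normal draws of equal spread. Both settings differ from these data, where most families changed and relative clone size spread more widely in TET. These simulations therefore do not show how the tests behave on data like these.

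Named clonotypes were the largest TRBV1 clonotype of each library and the 5 CDR3s in the most TET libraries; named families were the 3 nearest in use among those tested. The design text gives 4 mice per strain for the fractions, and same-numbered libraries were taken as pairs in an alternative; deviations of family use correlated between them by -0.318 to 0.630 over 15 families, so the values do not settle the pairing. A library's floor of 3 counts was 0.00499% to 0.118%.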

Additional observations from a re-analysis of the deposited data

Results flagged for a closer look

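Among 39 sets of library values, 4 values stood apart from the others of their group by Dixon's criterion, which chance meets in about 1 set in 20. The WT TET group, with the fewest libraries, was not among these sets. In mutant TET 4 the relative clone size of TRBV1 was -6.20, where the other mutant TET libraries were at -1.64 to -1.07. In the same library the largest TRBV1 clonotype held 15.6% of the TRBV1 counts, against 1.70% to 3.52% in the others; that library had 96 TRBV1 counts in all. In WT CD8 1 the TRBJ1 share of TRBV1 exceeded that of the other families by 0.732 points, against 4.46 to 5.10 points in the other WT CD8 libraries, on 86 TRBV1 clonotypes. In mutant CD8 2, CTCSA opened 70.0% of TRBV1 CDR3s, against 72.6% to 73.0% in the other mutant CD8 libraries.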

How the results depend on the processing

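Of 361 alternatives for 24 results, 296 kept the direction and the side of the threshold, 24 lost the threshold, 5 passed it and 36 changed direction; causes were not tested except where named. Weighted by counts, the log2 differences in TRBV1 clonotypes reversed to -0.52 (TET against CD8), -0.13 (in WT), -0.86 (in mutant), -0.61 (strain in TET), 0.12 (strain in CD8) and -0.73 (difference of strain effects). By DESeq2 they were 1.12 in WT, -0.35 for strain in TET and -0.40 for the difference of strain effects, which was -0.48 with TMM factors. Without WT TET 2 and mutant TET 4, chosen after seeing the data as an alternative for the exact tests, strain in TET was -0.042 and TRBJ1 use in TET against CD8 8.69 points. Without single-count clonotypes TRBJ1 use in TET against CD8 was 11.0 points, the aspartate difference 2.47 (TET against CD8) and -0.223 (strain in CD8), the TRBJ1 excess in CD8 2.80, and its difference between fractions 3.19. Weighted by counts, the aspartate difference between strains in CD8 was -0.834, the TRBJ1 excess in CD8 0.475, its difference between fractions 12.3, and the length excess in CD8 0.410. Without clonotypes at 10 times the count in another library, strain differences were -0.049 residues in TET and -0.255 points of aspartate in CD8.

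With same-numbered libraries as a replicate block, relative clone size was -2.20 (adjusted p 0.0938, the exact test's smallest raw p being 0.0156), and TRBV1 clonotypes in TET against CD8 0.87; the block changed no other call among the results fitted with it. It was not run for the difference of strain effects, for the strain contrasts of the exact tests or for the excesses within a fraction.

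Leaving out 1 library gave 0.83 to 0.92 for TRBV1 clonotypes in TET against CD8, 0.19 to 0.92 in WT, 0.87 to 0.96 in mutant, -0.072 to 0.65 for strain in TET, -0.16 to 0.00055 in CD8 and 0.0048 to 0.73 for their difference. Relative clone size ran from -2.58 to -1.45 in TET against CD8 and from -2.11 to 0.51 for strain in TET. TRBJ1 use ran from -2.24 to 0.541 points for strain in CD8. Length ran from -0.183 to 0.0326 in TET against CD8 and from -0.222 to 0.210 for strain in TET. Aspartate ran from -3.94 to -0.0179 in TET against CD8 and from -0.982 to 1.45 for strain in CD8. The TRBJ1 excess ran from -0.401 to 2.11 in TET, from 4.03 to 4.85 in CD8 and from -5.71 to -1.95 between them. The length excess ran from 0.328 to 0.370 in CD8 and from -0.0436 to 0.304 in TET against CD8. The excesses in CD8 lost the threshold without any 1 library, since 7 libraries allow no raw p under 0.0156. WT TET values rest on 6 to 17 TRBV1 clonotypes.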

Other observations

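The deposited tables give a V reference length of 304 or 306 bases for TRBV1 clonotypes. The length of 304 was given in 57.3% of TRBV1 clonotypes per library on average in CD8 (n = 8) and in 46.6% in TET (n = 7), with 48.2% to 66.5% and 38.2% to 52.9% by library.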
